A study of Mus musculus and Homo sapiens with 27 samples.

Results

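The mRNAs described here encode the enzymes that build and finish glycans in the endoplasmic reticulum (ER) and the Golgi, measured in MC38, a mouse colon carcinoma line. Members were the genes of the deeper of the MC38 count tables, called 12G in the labels, whose symbols start with Alg, Pomt, Pomgnt, Galnt, Mgat, B3gal, B3gn, B4gal, St3gal, St6gal, Fut or Chst and whose counts summed to at least 180 over the 9 libraries. The symbols matched 111 genes of 56691 features, of which 61 reached this sum, 50 did not and 26 of those 50 had 0 counts in every library. All 61 members passed the low-count filter and were tested among 11676 genes. Just under the minimum were B4galnt1 with 155 counts and B3galt4 with 174 counts, and just above it Chst10 with 286 and B3gntl1 with 287 counts. The 14 Alg and Pomt genes are called ER members and the other 47 Golgi members; the 7 Chst genes among the Golgi members encode sulfotransferases, which decorate glycans with sulfate and are not glycosyltransferases.

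The study used labelling set off by bioluminescence to tag RNA near a chosen place in living cells. In every group the cells stably expressed an enzyme that the labels call LAP, located at the ERM, taken here as the ER membrane. Label_Enrich is RNA captured on streptavidin beads after cells were incubated for 15 to 60 min with furimazine (50 µM), whose oxidation by luciferase gives light, and with PA (10 mM), an abbreviation the labels leave unexplained, and biotin was attached to the RNA. NonLabel_Enrich is RNA captured in the same way from cells that the titles call NonLabel, and the labels do not say which component they lacked. Label_Input is RNA of labelled cells set aside before capture. Each group had 3 libraries, and the sources used here do not say whether they came from separate cultures, whether the line was 1 clone, or which promoter drove LAP.

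In the ER, Alg enzymes build an oligosaccharide on the lipid dolichol, first on the cytosolic face of the membrane and then, after it is flipped, on the lumenal face, and the finished glycan is transferred to asparagines of new proteins. Pomt enzymes attach mannose to serines and threonines in the same compartment. In the Golgi, other enzymes trim, branch and extend these glycans, start mucin-type O-glycans (Galnt) and cap chains with sialic acid, fucose or sulfate. Most proteins of both compartments enter the ER membrane while they are translated, so their mRNAs can be held at the ER surface by ribosomes, whether the protein stays in the ER or moves on to the Golgi.

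The coding sequences of the classes differ in the stretches that anchor the proteins in the membrane, and 7 examples are shown because such stretches direct new proteins to the ER membrane. A segment is a window of 19 residues with a mean Kyte-Doolittle hydropathy of at least 1.6. Lower case gives 3 codons on each side and capitals the codons of the first segment, 5′ to 3′, from GENCODE M21 coding sequences (build GRCm38). The first 4 are Golgi members and the last 3 ER members.
B4galt1: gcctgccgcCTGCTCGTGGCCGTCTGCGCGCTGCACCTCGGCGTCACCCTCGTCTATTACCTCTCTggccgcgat
Mgat1: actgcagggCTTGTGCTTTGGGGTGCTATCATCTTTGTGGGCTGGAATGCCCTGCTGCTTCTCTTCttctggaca
Galnt2: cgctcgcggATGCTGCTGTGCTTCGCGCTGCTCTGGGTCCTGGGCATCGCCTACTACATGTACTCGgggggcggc
St3gal2: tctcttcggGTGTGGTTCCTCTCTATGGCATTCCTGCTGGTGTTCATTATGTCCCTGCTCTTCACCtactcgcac
Alg2: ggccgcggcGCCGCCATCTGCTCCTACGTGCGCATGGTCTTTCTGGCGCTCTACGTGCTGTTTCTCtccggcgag
Alg5: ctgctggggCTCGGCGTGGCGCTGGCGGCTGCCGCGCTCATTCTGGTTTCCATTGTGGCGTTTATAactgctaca
Pomt1: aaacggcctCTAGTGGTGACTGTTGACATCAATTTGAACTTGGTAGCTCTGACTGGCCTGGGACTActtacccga
These segments start at residue 25 of B4galt1, 9 of Mgat1, 7 of Galnt2 and of St3gal2, 86 of Alg2, 11 of Alg5 and 31 of Pomt1. The genes lie on mouse chromosomes 4 (B4galt1 and Alg2), 11 (Mgat1), 8 (Galnt2 and St3gal2), 3 (Alg5) and 2 (Pomt1). Among the 14 ER members the median number of segments was 5, with a range of 0 to 8, and 11 members had at least 2. Among the 47 Golgi members the median was 1, with a range of 0 to 2, and 35 had exactly 1, which in all 35 began within the first 50 residues. Alg5 and Alg2 had 1 segment each and Pomt1 had 7. The annotated transcript of Alg13, the catalytic subunit of the enzyme that adds the second sugar, had none. Transcripts of ER members were shorter, with a median length of 2501.5 nt, against 3184 nt for Golgi members.

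Library totals ran between 13127181 and 18614808 counts. The 2 most abundant features took 67.6% to 68.6% of the counts in Label_Enrich, 72.1% to 75.4% in NonLabel_Enrich and 87.5% to 88.0% in Label_Input. The counts behind all other genes therefore numbered 4509948 to 6022322 in Label_Enrich, 3660109 to 3869477 in NonLabel_Enrich and 1686731 to 2058350 in Label_Input, so that Label_Input values carry the largest counting error. The labelled cell type was not borne out by epithelial markers: none of 10 reached 180 counts, Epcam, Krt20 and Cdx2 had 0, and their summed level, as read counts scaled to a common library size (CPM), was 4.48 to 5.32 CPM in Label_Enrich, 5.74 to 6.98 in NonLabel_Enrich and 6.32 to 7.11 in Label_Input, with library sizes that leave out the 2 most abundant features. Of 10 mesenchymal markers 7 reached it (Lum had 0), with sums of 5352 to 5513 CPM in Label_Enrich, 4516 to 4623 in NonLabel_Enrich and 3885 to 4025 in Label_Input, and the part of these differences in the results was not tested. Of 8 blood markers 1 reached 180 counts and Adgre1, Cd3e, Lyz2 and Itgam had 0, and of 5 endothelial markers none did.

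As a share of the counts outside the 2 most abundant features, the members made up 0.308% ± 0.00336 in Label_Enrich, 0.273% ± 0.00195 in NonLabel_Enrich and 0.208% ± 0.00375 in Label_Input (SD, n = 3 each). The 3 groups did not overlap in this share, with the captured libraries of labelled cells highest and the uncaptured ones lowest. The ER members' share of these member counts ran in another order, at 15.5% ± 0.356 in Label_Enrich, 13.5% ± 0.890 in NonLabel_Enrich and 16.7% ± 0.486 in Label_Input (SD, n = 3 each). Here too the groups did not overlap, and NonLabel_Enrich was lowest for the ER members' share while it lay between the other groups for the members as a whole. Per kilobase of transcript, with levels averaged over the 9 libraries, Galnt2 (12.0 CPM per kb), Mgat4b (11.2), Galnt1 (9.85), Mgat2 (9.06) and St3gal2 (7.39) had the highest levels, all of them Golgi members. Alg5 had the highest level per kilobase of the ER members, 5.78 CPM per kb, and Mgat4a the lowest of all 61, 0.277 CPM per kb.

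**Figure D1:**
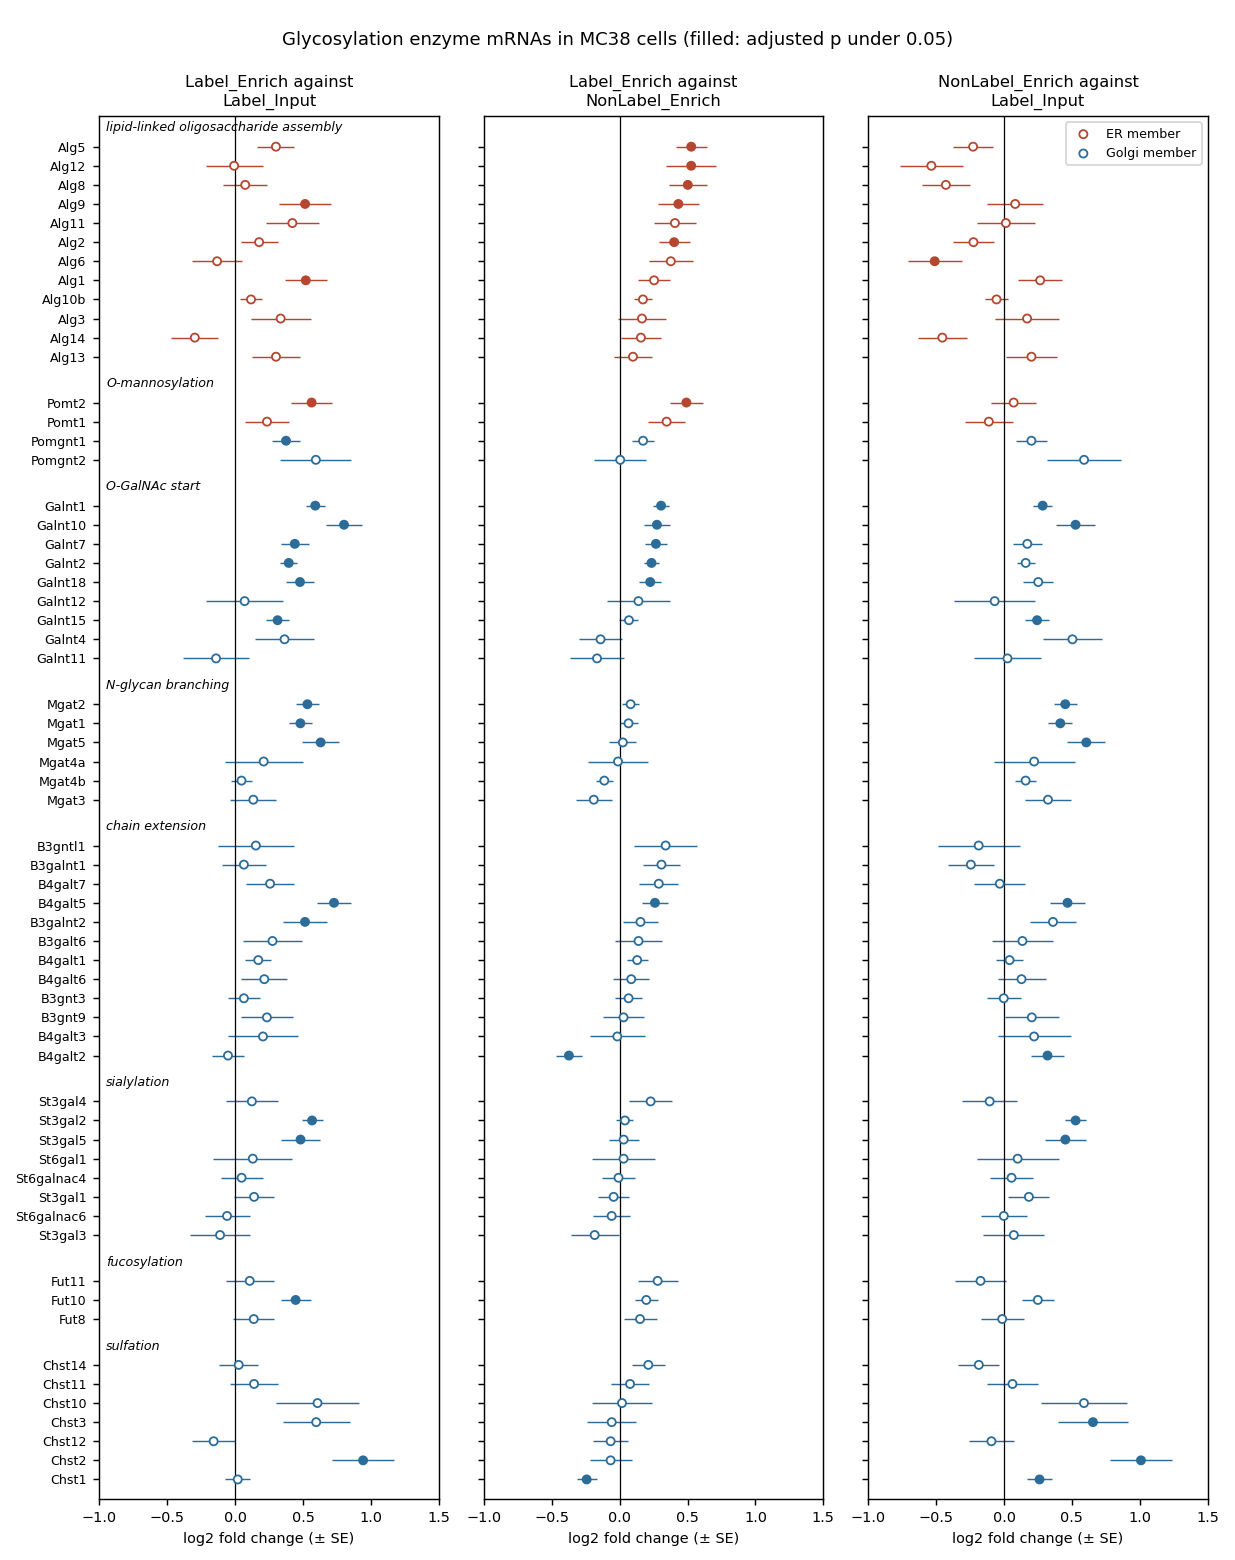
Log2 fold change of each of the 61 members (points, with SE bars) in the 3 comparisons, grouped by role, with ER members in red, Golgi members in blue and filled points for an adjusted p under 0.05 in edgeR. In Label_Enrich against NonLabel_Enrich all 14 ER members lie right of 0, between 0.10 and 0.53, while N-glycan branching and sialylation members lie on both sides of it.

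Label_Enrich against NonLabel_Enrich asks which RNAs were higher in captured RNA when labelling was carried out. ER members stood higher here: 6 of 14 rose (Alg2, Alg5, Alg8, Alg9, Alg12 and Pomt2), none fell, and the 14 fold changes lay between 0.10 and 0.53 with a median of 0.39. Of the 47 Golgi members 6 rose (Galnt1, Galnt2, Galnt7, Galnt10, Galnt18 and B4galt5) and 2 fell (B4galt2 and Chst1), with a median of 0.07. Over all tested genes 10.4% were called higher, 9.63% lower and 20.1% in either direction, and the median was 0.00. All 14 ER members and 32 of 47 Golgi members had a positive fold change, against 50.4% of all tested genes. The 3 Label_Enrich libraries lay above the 3 NonLabel_Enrich libraries for 10 ER members and 12 Golgi members, where 17.6% of all tested genes did, and below them for 3 Golgi members, where 17.0% did. Leaving out 1 library kept the ER median at 0.34 to 0.41 and the Golgi median at 0.05 to 0.08. The ER count fell to 3 without NonLabel_Enrich replicate 1, and was 4 by the DESeq2 Wald test. It was 5 in the MC38 3G table, a shallower count of the same libraries, where Alg10b was called and Alg9 and Alg12 were not. The count of Golgi risers was 3 without Label_Enrich replicate 1 or NonLabel_Enrich replicate 3 and 2 without Label_Enrich replicate 3 or NonLabel_Enrich replicate 1, and that of Golgi members that fell was 1 without Label_Enrich replicate 3. Alg2, Alg5, Pomt2, Galnt1, Galnt2 and B4galt2 stayed called whichever of the 9 libraries was left out and under the other 8 alternatives. No member was called and at least 2-fold higher, as 0.128% of all tested genes were. The difference between the classes was not tested, since members of a class are not replicates. It stood at a median of 0.31 for ER members against 0.07 for Golgi members when Pomgnt2, B3galnt2, Fut10 and Fut11, whose products are reported in the ER, were counted as ER members.

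Among the enzymes of the cytosolic face, Alg5, which makes the glucose donor dolichyl phosphate glucose, had 10.7, 10.3 and 9.35 CPM in Label_Enrich, against 6.0, 7.26 and 7.81 CPM in NonLabel_Enrich and 8.78, 10.6 and 5.73 CPM in Label_Input. All Label_Enrich libraries lay above all NonLabel_Enrich libraries, while Label_Input spread widely and overlapped both. Alg5 rose by 0.53 ± 0.11 (edgeR adjusted p = 0.000285) on the log2 scale against NonLabel_Enrich. Alg2, which adds mannoses to the growing lipid-linked chain and was named after its values were seen, had 7.92, 8.05 and 7.77 CPM in Label_Enrich, against 5.6, 5.63 and 6.72 CPM in NonLabel_Enrich and 6.61, 7.58 and 6.9 CPM in Label_Input. Its Label_Enrich libraries were above every library of both other groups. Alg2 rose by 0.40 ± 0.11 (edgeR adjusted p = 0.00733) against NonLabel_Enrich, and its difference from Label_Input was 0.18 ± 0.14 (edgeR adjusted p = 0.367). Alg1, which adds the first mannose, had 7.35, 7.8 and 7.59 CPM in Label_Enrich, against 5.6, 6.42 and 6.99 CPM in NonLabel_Enrich and 4.45, 4.58 and 6.67 CPM in Label_Input. Label_Enrich again lay above both other groups, which overlapped each other. The fold change of Alg1 against NonLabel_Enrich was 0.25 ± 0.12 (edgeR adjusted p = 0.129).

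On the lumenal face, Alg8, which adds the second glucose, had 5.93, 5.74 and 5.78 CPM in Label_Enrich, against 3.31, 4.22 and 4.77 CPM in NonLabel_Enrich and 6.37, 5.43 and 4.8 CPM in Label_Input. NonLabel_Enrich was low in all 3 libraries, and Label_Enrich lay inside the range of Label_Input. Alg8 rose by 0.50 ± 0.14 (edgeR adjusted p = 0.00605) against NonLabel_Enrich, and lost this call without NonLabel_Enrich replicate 1, with a fold change of 0.37. Alg9, a mannosyltransferase, had 4.65, 5.66 and 5.06 CPM in Label_Enrich, against 3.94, 3.6 and 3.8 CPM in NonLabel_Enrich and 2.77, 4.72 and 3.39 CPM in Label_Input. Label_Enrich lay above NonLabel_Enrich but overlapped Label_Input by 1 library. Alg9 rose by 0.43 ± 0.15 (edgeR adjusted p = 0.0311) against NonLabel_Enrich, a call lost on leaving out Label_Enrich replicate 2 or 3 or any NonLabel_Enrich library, with fold changes of 0.36 to 0.46, and also by DESeq2 (0.44) and in the 3G table (0.39). Alg12, another mannosyltransferase, named after its values were seen, had 4.52, 3.23 and 3.39 CPM in Label_Enrich, against 2.28, 2.14 and 3.36 CPM in NonLabel_Enrich and 4.45, 4.0 and 2.93 CPM in Label_Input. The highest NonLabel_Enrich library lay among the Label_Enrich ones. Alg12 rose by 0.53 ± 0.18 (edgeR adjusted p = 0.0319) against NonLabel_Enrich, and the call was lost without Label_Enrich replicate 1, NonLabel_Enrich replicate 1 or NonLabel_Enrich replicate 2, with fold changes of 0.34 to 0.44, and also by DESeq2 (0.53) and in the 3G table (0.31). Alg10b, which adds the last glucose and was the most abundant Alg member before correction for length, had 20.7, 19.7 and 20.9 CPM in Label_Enrich, against 17.4, 18 and 19.1 CPM in NonLabel_Enrich and 19.5, 17.7 and 19.2 CPM in Label_Input. Its Label_Enrich libraries were above all others by a narrow margin, and the fold change against NonLabel_Enrich was 0.17 ± 0.07 (edgeR adjusted p = 0.0651). In the 3G table Alg10b was called in this comparison (0.23).

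The protein O-mannosyltransferase subunits had positive fold changes too. Pomt2 had 7.18, 7.71 and 8.8 CPM in Label_Enrich, against 5.37, 5.74 and 5.64 CPM in NonLabel_Enrich and 5.17, 4.29 and 6.32 CPM in Label_Input. Label_Enrich was above every library of both other groups, which overlapped each other. Pomt2 rose by 0.49 ± 0.12 (edgeR adjusted p = 0.00159) against NonLabel_Enrich and by 0.56 ± 0.15 (edgeR adjusted p = 0.00275) against Label_Input, where the call was lost in the 3G table (0.39). Pomt1, its partner, had 5.6, 5.91 and 6.0 CPM in Label_Enrich, against 4.28, 5.12 and 4.34 CPM in NonLabel_Enrich and 5.05, 5.43 and 4.45 CPM in Label_Input. Label_Enrich lay above both other groups here too, with a smaller fold change of 0.35 ± 0.13 (edgeR adjusted p = 0.0565) against NonLabel_Enrich that did not pass. Pomgnt1, a Golgi enzyme that extends the O-mannose the Pomt proteins attach, had 15.5, 15.8 and 16.1 CPM in Label_Enrich, against 15.1, 14 and 12.9 CPM in NonLabel_Enrich and 8.9, 13.6 and 14.2 CPM in Label_Input. Label_Enrich was highest, and 1 Label_Input library lay far below the others. Its fold change was 0.17 ± 0.08 (edgeR adjusted p = 0.144) against NonLabel_Enrich. Pomgnt1 rose by 0.37 ± 0.11 (edgeR adjusted p = 0.00429) against Label_Input, a call lost without Label_Input replicate 1 (0.18).

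**Figure D2:**
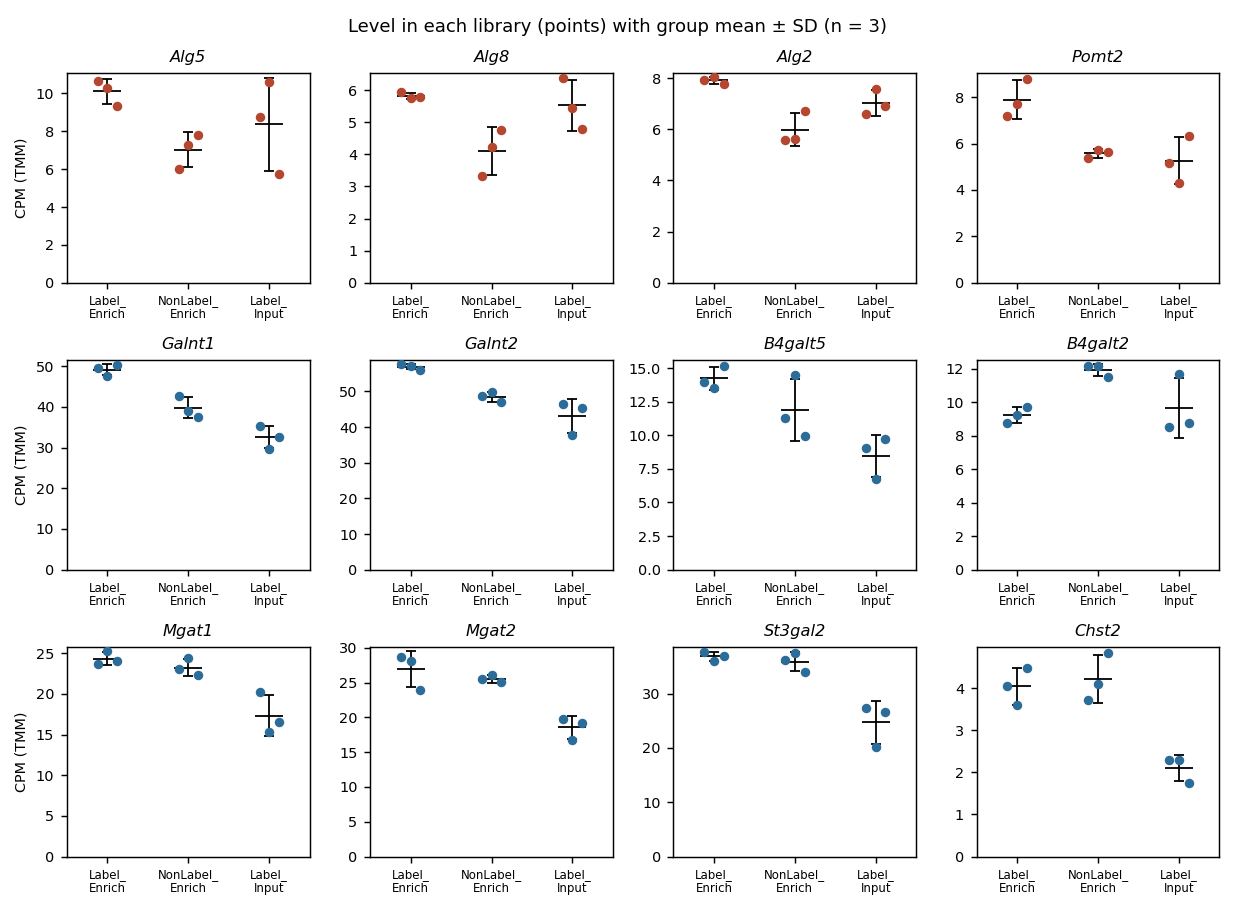
CPM of 12 members in each library (points), with group means (long bars) and SD (n = 3 each); ER members are red and Golgi members blue. For Alg5, Alg8, Alg2 and Pomt2 every NonLabel_Enrich library lies below every Label_Enrich library. For Alg5, Alg2 and Pomt2 NonLabel_Enrich overlaps Label_Input. For Mgat1, Mgat2, St3gal2 and Chst2 the NonLabel_Enrich libraries sit beside Label_Enrich and Label_Input is low.

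The Golgi members that rose against NonLabel_Enrich were mostly of the Galnt family, grouped here by symbol alone: 5 of 9 Galnt members rose and none fell, with a median of 0.23. Among all tested genes 10.4% were called higher and 9.63% lower in this comparison. Galnt1, a broadly expressed member of the family, had 49.5, 47.6 and 50.2 CPM in Label_Enrich, against 42.7, 39 and 37.6 CPM in NonLabel_Enrich and 35.2, 29.7 and 32.6 CPM in Label_Input. The 3 groups did not overlap, in the order Label_Enrich, NonLabel_Enrich, Label_Input. Galnt1 rose by 0.31 ± 0.06 (edgeR adjusted p = 6.09e-05) against NonLabel_Enrich and by 0.59 ± 0.07 (edgeR adjusted p = 1.12e-10) against Label_Input. Galnt2, the most abundant member, had 57.7, 57.1 and 56.1 CPM in Label_Enrich, against 48.6, 49.8 and 47 CPM in NonLabel_Enrich and 46.4, 37.7 and 45.4 CPM in Label_Input. The groups again did not overlap and kept that order. Galnt2 rose by 0.23 ± 0.06 (edgeR adjusted p = 0.00126) against NonLabel_Enrich and by 0.39 ± 0.06 (edgeR adjusted p = 8.24e-07) against Label_Input. Galnt7, Galnt10 and Galnt18, named after their values were seen, rose by 0.27, 0.27 and 0.23 against NonLabel_Enrich. Galnt7 lost its call without Label_Enrich replicate 3 (0.20) or NonLabel_Enrich replicate 1 (0.18). Galnt10 kept its call when Label_Enrich replicate 2 was left out but lost it without any other library of these groups (0.24 to 0.30), and Galnt18 lost it without any of them but NonLabel_Enrich replicate 2 (0.12 to 0.26). In the 3G table none of these 3 was called (0.20, 0.29 and 0.19), and by DESeq2 Galnt10 (0.28) and Galnt18 (0.23) were not.

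The chain-extending enzymes moved in both directions. B4galt5, which makes lactosylceramide, had 14, 13.5 and 15.2 CPM in Label_Enrich, against 11.3, 14.5 and 9.92 CPM in NonLabel_Enrich and 9.02, 6.72 and 9.71 CPM in Label_Input. Label_Input was lowest, and NonLabel_Enrich replicate 2 lay among the Label_Enrich libraries. B4galt5 rose by 0.26 ± 0.09 (edgeR adjusted p = 0.0384) against NonLabel_Enrich, a call lost on leaving out any Label_Enrich library, NonLabel_Enrich replicate 1 or NonLabel_Enrich replicate 3 (0.14 to 0.29), by DESeq2 (0.27) and in the 3G table (0.28). B4galt2, a galactosyltransferase of N-glycans, had 8.8, 9.22 and 9.75 CPM in Label_Enrich, against 12.2, 12.2 and 11.5 CPM in NonLabel_Enrich and 8.54, 11.7 and 8.78 CPM in Label_Input. NonLabel_Enrich was above Label_Enrich in all 3 libraries and overlapped Label_Input. B4galt2 fell by 0.37 ± 0.09 (edgeR adjusted p = 0.00218) against NonLabel_Enrich. B4galt1, the most abundant of this role before correction for length, had 17.8, 17.2 and 17 CPM in Label_Enrich, against 14, 16.9 and 16.6 CPM in NonLabel_Enrich and 13, 16.6 and 16.8 CPM in Label_Input. Label_Enrich was narrowly above all other libraries, with a fold change of 0.13 ± 0.08 (edgeR adjusted p = 0.25) against NonLabel_Enrich. B3gntl1, close to the minimum count, had 2.36, 2.18 and 1.54 CPM in Label_Enrich, against 1.71, 1.46 and 1.68 CPM in NonLabel_Enrich and 1.44, 1.86 and 2.22 CPM in Label_Input. All 3 groups overlapped, and the fold change against NonLabel_Enrich was 0.34 ± 0.23 (edgeR adjusted p = 0.332).

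No member of the N-glycan branching (6), sialylation (8) or fucosylation (3) roles was called in Label_Enrich against NonLabel_Enrich, where 20.1% of all tested genes were called in either direction. Mgat3, which adds the bisecting sugar, had 5.7, 5.37 and 6.23 CPM in Label_Enrich, against 6.05, 5.35 and 8.24 CPM in NonLabel_Enrich. The groups overlapped, with NonLabel_Enrich replicate 3 above all others. Its fold change was -0.19 ± 0.13 (edgeR adjusted p = 0.34). Mgat4b, a branching enzyme and the most abundant of its role, had 26.7, 27.8 and 25.3 CPM in Label_Enrich, against 30.6, 26.8 and 28.9 CPM in NonLabel_Enrich and 24.6, 28.7 and 24.3 CPM in Label_Input. All 3 groups overlapped, and the fold change against NonLabel_Enrich was -0.11 ± 0.06 (edgeR adjusted p = 0.228). St3gal4 and St3gal3, which sialylate galactose, had fold changes of 0.23 ± 0.16 (edgeR adjusted p = 0.338) and -0.18 ± 0.18 (edgeR adjusted p = 0.523), and their groups overlapped. Fut11, Fut10 and Fut8, the last of which adds the core fucose of N-glycans, had fold changes of 0.28, 0.20 and 0.15, and none passed. Fut8 was called in the 3G table alone (0.38). Among the sulfotransferases 1 of 7 was called, against 20.1% of all tested genes. Chst1, which sulfates keratan sulfate, had 18.4, 18.9 and 16.4 CPM in Label_Enrich, against 21.8, 21.2 and 20.8 CPM in NonLabel_Enrich and 18.6, 20.7 and 14.3 CPM in Label_Input. NonLabel_Enrich was above Label_Enrich in all 3 libraries. Chst1 fell by 0.24 ± 0.07 (edgeR adjusted p = 0.0119) against NonLabel_Enrich, a call lost without Label_Enrich replicate 3 (-0.19). Chst14, a dermatan sulfate enzyme, had a fold change of 0.21 ± 0.12 (edgeR adjusted p = 0.222).

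**Figure D3:**
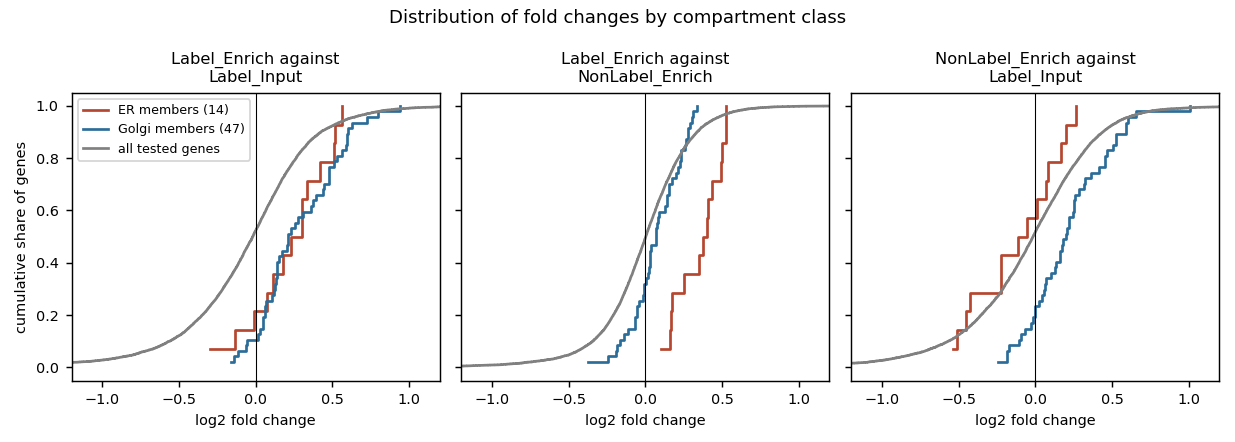
Cumulative share of genes (vertical axis) at or below each log2 fold change (horizontal axis) for the 14 ER members, the 47 Golgi members and all 11676 tested genes. In Label_Enrich against NonLabel_Enrich the ER curve, with a median of 0.39, lies right of the Golgi curve (0.07), and in NonLabel_Enrich against Label_Input it lies left of it (-0.08 against 0.20).

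Label_Enrich against Label_Input compares captured with uncaptured RNA, and the cells of both groups were labelled. In this comparison 19 of 61 members rose and none fell, with a median of 0.23, where 14.2% of all tested genes were called higher, 14.6% lower and 28.7% in either direction with a median of -0.02. Without the low-count filter 2228 genes were called higher and 1177 lower, against 1654 and 1700 with it, and the fold changes of genes tested both ways shifted by a median of 0.10. ER and Golgi members lay close together: 3 of 14 ER members rose (Alg1, Alg9 and Pomt2; median 0.27) and 16 of 47 Golgi members rose (median 0.21). The Label_Enrich libraries lay above all Label_Input libraries for 6 ER members and 21 Golgi members, where 19.2% of all tested genes did, and below them for no member, where 20.4% did. Fold changes were positive for 53 of 61 members, against 47.8% of all tested genes. No member was called and at least 2-fold higher, which 0.634% of all tested genes were. Alg1 rose by 0.52 ± 0.15 (edgeR adjusted p = 0.00656) but lost its call without Label_Input replicate 1 (0.41). Alg9 rose by 0.51 ± 0.19 (edgeR adjusted p = 0.0322) and lost its call without Label_Enrich replicate 2 (0.44), Label_Input replicate 1 (0.35) or Label_Input replicate 3 (0.48). Without Label_Input replicate 1 the count of ER members that rose was 1, and without Label_Input replicate 3 the ER median was 0.15. Alg14, the membrane anchor of Alg13, had the lowest fold change of the 61, -0.30 ± 0.17 (edgeR adjusted p = 0.205), which did not pass.

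None of the 3 ER calls against Label_Input stayed under all 17 alternatives, Pomt2 being lost in the 3G table alone. Of the 16 Golgi members that rose, 12 stayed called whichever of the 9 libraries was left out and under the other 8 alternatives: Galnt1, Galnt2, Galnt7, Galnt10, Galnt18, Mgat1, Mgat2, Mgat5, B4galt5, St3gal2, Fut10 and Chst2. Of the 6 N-glycan branching members 3 rose, Mgat1, Mgat2 and Mgat5, while Mgat3 (0.13), Mgat4a (0.21) and Mgat4b (0.05) were not called. The share called higher over all tested genes was 14.2%. Mgat1, which opens the way to hybrid and complex N-glycans, had 23.7, 25.2 and 24 CPM in Label_Enrich, against 23, 24.4 and 22.3 CPM in NonLabel_Enrich and 20.2, 15.3 and 16.5 CPM in Label_Input. The captured libraries of both kinds overlapped each other and lay above Label_Input. Mgat1 rose by 0.48 ± 0.08 (edgeR adjusted p = 4.07e-06) against Label_Input, while its difference from NonLabel_Enrich was 0.07 ± 0.07 (edgeR adjusted p = 0.545). Mgat2, which acts after it, had 28.7, 28.1 and 23.9 CPM in Label_Enrich, against 25.5, 26.1 and 25.1 CPM in NonLabel_Enrich and 19.8, 16.7 and 19.2 CPM in Label_Input. The same arrangement held, with Label_Input below all 6 captured libraries. Mgat2 rose by 0.53 ± 0.08 (edgeR adjusted p = 2.64e-07) against Label_Input, and its difference from NonLabel_Enrich was 0.08 ± 0.06 (edgeR adjusted p = 0.424). Mgat5, which adds a further branch and was named after its values were seen, had 9.81, 10.1 and 9.44 CPM in Label_Enrich, against 9.14, 10.2 and 9.6 CPM in NonLabel_Enrich and 6.97, 7.29 and 4.91 CPM in Label_Input. Its captured libraries lay above Label_Input and overlapped each other. Mgat5 rose by 0.63 ± 0.13 (edgeR adjusted p = 0.000136) against Label_Input and differed from NonLabel_Enrich by 0.02 ± 0.10 (edgeR adjusted p = 0.908).

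Among sialyltransferases 2 of 8 rose in Label_Enrich against Label_Input, where 14.2% of all tested genes were called higher. St3gal2, which sialylates the core of O-glycans and some glycolipids, had 37.7, 36 and 36.9 CPM in Label_Enrich, against 36.2, 37.4 and 34.1 CPM in NonLabel_Enrich and 27.3, 20.2 and 26.7 CPM in Label_Input. Both kinds of captured library were above Label_Input and overlapped each other. St3gal2 rose by 0.57 ± 0.08 (edgeR adjusted p = 9.45e-09) against Label_Input. St3gal5, which makes the ganglioside GM3, had 8.19, 7.5 and 7.99 CPM in Label_Enrich, against 8.8, 6.87 and 7.59 CPM in NonLabel_Enrich and 4.93, 6.58 and 5.62 CPM in Label_Input. The arrangement was that of St3gal2. St3gal5 rose by 0.48 ± 0.15 (edgeR adjusted p = 0.0084) and lost this call without Label_Input replicate 1 (0.39). Chst2, a sulfotransferase acting on N-acetylglucosamine, had the largest fold change of the 61 members in this comparison, with 4.05, 3.61 and 4.47 CPM in Label_Enrich, against 3.71, 4.11 and 4.83 CPM in NonLabel_Enrich and 2.28, 2.29 and 1.76 CPM in Label_Input. Label_Input lay far below all 6 captured libraries. Chst2 rose by 0.94 ± 0.23 (edgeR adjusted p = 0.000694) against Label_Input and differed from NonLabel_Enrich by -0.07 ± 0.15 (edgeR adjusted p = 0.823).

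Other members of these roles rose against Label_Input with values as follows. B4galt5, whose levels are given above, rose by 0.73 ± 0.12 (edgeR adjusted p = 2.18e-06). Galnt10 had 10.9, 9.89 and 11.2 CPM in Label_Enrich, against 6.61, 6.86 and 5.03 CPM in Label_Input. Every Label_Enrich library was well above every Label_Input library. Galnt10 rose by 0.80 ± 0.13 (edgeR adjusted p = 1.18e-06), the largest rise among the Galnt members. Fut10, a fucosyltransferase, had 13.9, 15.6 and 14.1 CPM in Label_Enrich, against 13.3, 9.29 and 9.24 CPM in Label_Input. The groups did not overlap, though Label_Input replicate 1 came close. Fut10 rose by 0.45 ± 0.11 (edgeR adjusted p = 0.00101). B3galnt2, which extends the O-mannose glycan of dystroglycan, had 7.21, 7.09 and 6.91 CPM in Label_Enrich, against 5.53, 6.15 and 3.39 CPM in Label_Input. The groups did not overlap, and Label_Input replicate 3 was lowest. B3galnt2 rose by 0.51 ± 0.16 (edgeR adjusted p = 0.0123) and lost its call without Label_Input replicate 3 (0.29). Galnt15 rose by 0.31 ± 0.09 (edgeR adjusted p = 0.00368) and lost its call without Label_Input replicate 1 (0.17). Chst3, a chondroitin sulfotransferase, had 3.03, 2.85 and 3.66 CPM in Label_Enrich, against 2.77, 1.14 and 2.22 CPM in Label_Input. The groups did not overlap, but the counts were low, and the fold change of 0.60 ± 0.25 (edgeR adjusted p = 0.0623) did not pass. The 42 members that were not called ranged between -0.30 and 0.61, with Chst10 the highest.

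NonLabel_Enrich against Label_Input compares captured RNA of NonLabel cells with uncaptured RNA of labelled cells, so capture and treatment differ together. The series holds no uncaptured RNA of NonLabel cells. An effect of capture and a change of the RNA pool under treatment therefore cannot be told apart here. In Label_Enrich against NonLabel_Enrich such a change cannot be told apart from labelling of the RNA. NonLabel_Enrich against Label_Input is gene by gene the test of the difference between the other comparisons, with which it shares all its libraries. The classes lay apart in the opposite order: none of 14 ER members rose and 1 fell (Alg6; median -0.08), whereas 13 of 47 Golgi members rose and none fell (median 0.20). The count of ER members that fell was 0 without Label_Enrich replicate 2, NonLabel_Enrich replicate 1 or NonLabel_Enrich replicate 2 and 3 without Label_Input replicate 3 or NonLabel_Enrich replicate 3. Over all tested genes 14.8% were called higher, 14.7% lower and 29.5% in either direction, with a median of -0.02. Fold changes were positive for 6 of 14 ER and 36 of 47 Golgi members, against 48.2% of all tested genes. NonLabel_Enrich libraries lay above all Label_Input libraries for no ER member and 15 Golgi members, where 19.5% of all tested genes did, and below them for 2 ER members, where 19.3% did. Alg6, which adds the first glucose and was named after its values were seen, had 3.37, 3.32 and 3.09 CPM in NonLabel_Enrich, against 4.81, 3.57 and 5.38 CPM in Label_Input. The groups did not overlap. Alg6 fell by 0.51 ± 0.20 (edgeR adjusted p = 0.0432), a call lost on leaving out any library but Label_Enrich replicates 1 and 3 and Label_Input replicate 2 and also by DESeq2, without the low-count filter, with only the 6 libraries compared and in the 3G table (-0.64 to -0.38 over all alternatives). The fold changes of Alg8, Alg12 and Alg14 in this comparison were -0.43, -0.53 and -0.45, and none passed.

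The Golgi members that rose in NonLabel_Enrich against Label_Input were Mgat1, Mgat2, Mgat5, St3gal2, St3gal5, Chst1, Chst2, Chst3, Galnt1, Galnt10, Galnt15, B4galt2 and B4galt5. Of these, Chst2, Galnt1, Mgat1, Mgat2, Mgat5 and St3gal2 stayed called whichever library was left out and under the other 8 alternatives. Mgat1 rose by 0.41 ± 0.09 (edgeR adjusted p = 0.000118), Mgat2 by 0.45 ± 0.09 (edgeR adjusted p = 2.11e-05) and Mgat5 by 0.61 ± 0.14 (edgeR adjusted p = 0.000426). St3gal2 rose by 0.53 ± 0.08 (edgeR adjusted p = 1.52e-07). Galnt1 rose by 0.28 ± 0.07 (edgeR adjusted p = 0.00141), and Chst2 by 1.01 ± 0.23 (edgeR adjusted p = 0.000413), the only member called at least 2-fold higher in this comparison, as 0.411% of all tested genes were. For Mgat1, Mgat2, Mgat5, St3gal2 and Chst2 the difference between Label_Enrich and NonLabel_Enrich lay between -0.07 and 0.08 and did not pass. B4galt2 (0.32) and Chst1 (0.26) also rose here, and were the members that fell in Label_Enrich against NonLabel_Enrich. Each of the other 7 calls was lost on leaving out at least 1 library. Galnt10 lost its call without Label_Input replicate 3 (0.39), B4galt5 without Label_Input replicate 2 (0.34) or NonLabel_Enrich replicate 2 (0.30), and Chst1 without Label_Input replicate 3 (0.12) or NonLabel_Enrich replicate 1 (0.25). St3gal5 lost it without Label_Input replicate 1 (0.36) or 3 (0.45) or NonLabel_Enrich replicate 1 (0.36), and Galnt15 without Label_Input replicate 1 (0.10), while without NonLabel_Enrich replicate 2 or 3 its call was lost at a nearly unchanged fold change (0.24 and 0.23, against 0.24 with all libraries). B4galt2 lost it without Label_Input replicate 1 (0.24) or 3 (0.26) or NonLabel_Enrich replicate 1 or 2 (0.31 each), and Chst3 without 5 of the 9 libraries (0.41 to 0.71). In the 3G table B4galt2 (0.35), B4galt5 (0.33), Chst1 (0.19) and Chst3 (0.53) were not called, and Chst3 was not called by DESeq2 (0.69) or with only the 6 libraries compared (0.65).

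**Figure D4:**
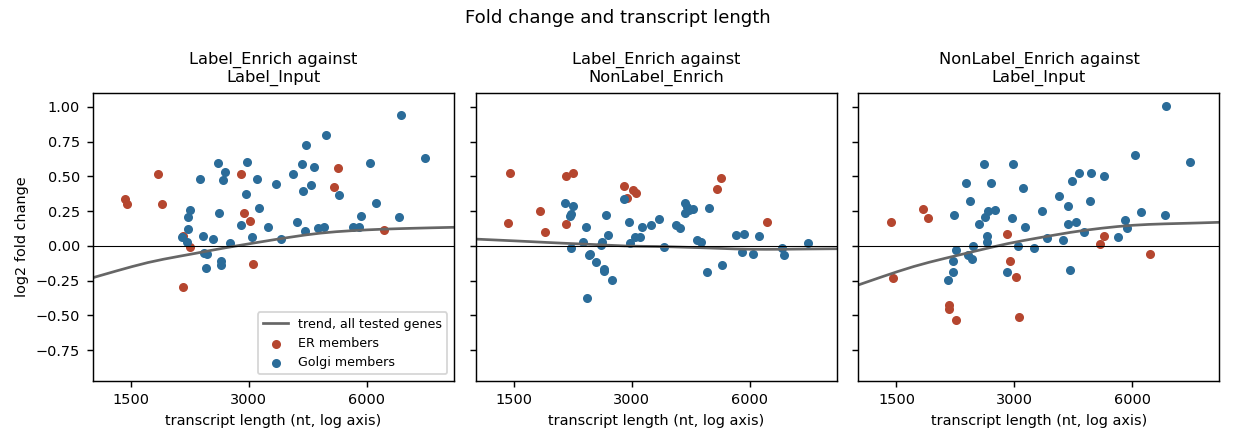
Log2 fold change of each ER and Golgi member (points) against the length of its annotated transcript (nt, log axis), with the trend over all tested genes (line). In the comparisons with Label_Input longer transcripts have higher fold changes, and in Label_Enrich against NonLabel_Enrich the line is close to level and the ER members lie above it at all lengths.

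Fold changes against Label_Input went with transcript length. Across the 47 Golgi members Spearman's rho between length and fold change was 0.46 in Label_Enrich against Label_Input, -0.06 in Label_Enrich against NonLabel_Enrich and 0.44 in NonLabel_Enrich against Label_Input. The values across 11531 tested genes with a length were 0.37, -0.09 and 0.42, and across the 14 ER members -0.05, 0.15 and -0.19; genes share the same libraries and are not independent. With the trend over all tested genes removed, the ER and Golgi medians were 0.39 and 0.07 in Label_Enrich against NonLabel_Enrich. They were 0.27 and 0.19 in Label_Enrich against Label_Input, and -0.12 and 0.10 in NonLabel_Enrich against Label_Input, where the Golgi median was 0.20 before. Across all 61 members the number of hydrophobic segments had a rho of 0.37 with the fold change in Label_Enrich against NonLabel_Enrich, but within the ER members it was 0.03 and within the Golgi members 0.04. Both the many-pass and the single-segment ER members were among those that rose, such as Alg8 with 6 segments and Alg2 and Alg5 with 1 each. ER members of the cytosolic face (6) and the lumenal face (8) had medians of 0.33 and 0.40 in that comparison. The share of G and C bases in the transcript had a rho of -0.34 with that fold change across all 61 members. It was lower in ER members, with a median of 47.4%, than in Golgi members, with 52.1%. Its part in the difference between the classes was not tested.

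Other genes of glycan synthesis give the setting. Of 41 further ER and Golgi enzymes of glycan building and trimming, 12 rose and none fell in Label_Enrich against NonLabel_Enrich (median 0.17), 22 rose and none fell in Label_Enrich against Label_Input (median 0.33), and 14 rose and 3 fell in NonLabel_Enrich against Label_Input (median 0.23). Of all tested genes 10.4%, 14.2% and 14.8% were called higher in these comparisons and 9.63%, 14.6% and 14.7% lower. Uggt1, the ER enzyme that adds glucose back to misfolded glycoproteins, averaged 79.2 ± 0.374 CPM in Label_Enrich, against 56.6 ± 1.59 CPM in NonLabel_Enrich and 48.1 ± 1.15 CPM in Label_Input (SD, n = 3 each). Uggt1 rose by 0.48 ± 0.05 (edgeR adjusted p = 8.27e-12) against NonLabel_Enrich and by 0.72 ± 0.06 (edgeR adjusted p = 4.83e-17) against Label_Input. Man2a1, a Golgi mannosidase acting between Mgat1 and Mgat2, rose by 0.39 ± 0.07 (edgeR adjusted p = 6.88e-06) and 0.69 ± 0.08 (edgeR adjusted p = 2.46e-10) in the same comparisons. Of 10 other genes of the dolichol pathway none rose and 1 fell against NonLabel_Enrich (median 0.05), and 2 rose and 4 fell against Label_Input (median -0.34). In NonLabel_Enrich against Label_Input 2 rose and 4 fell as well (median -0.08). With the length trend over all tested genes removed, the medians of these genes were 0.04 in Label_Enrich against NonLabel_Enrich and -0.17 in Label_Enrich against Label_Input. The median in NonLabel_Enrich against Label_Input was then -0.006. The risers Dolk, dolichol kinase, and Nus1, a subunit of the enzyme that makes the dolichol chain, rose by 0.76 and 0.35 in NonLabel_Enrich against Label_Input. In Label_Enrich against Label_Input Dolk had a fold change of 0.90 ± 0.18 (edgeR adjusted p = 3.57e-05) and Nus1 one of 0.38 ± 0.09 (edgeR adjusted p = 0.000741). Mpdu1, Dpm2, Dpm3 and Srd5a3, named after their values were seen, fell by 0.55, 0.52, 0.52 and 0.43; Mpdu1 lost its call without Label_Input replicate 2 (-0.41), Dpm2 without Label_Enrich replicate 1 (-0.43) or Label_Input replicate 3 (-0.51), Dpm3 without any library of these groups (-0.55 to -0.46), and Srd5a3 without Label_Enrich replicate 2 or 3 or Label_Input replicate 2 or 3 (-0.41 to -0.28). None of these 4 was called without the low-count filter (-0.45 to -0.33), and Dpm3 and Srd5a3 were called neither by DESeq2 (-0.48 and -0.39) nor in the 3G table (-0.34 and -0.28). In NonLabel_Enrich against Label_Input the 4 genes fell by 0.52, 0.60, 0.64 and 0.47, calls that all but Dpm2 lost without the filter (-0.57 to -0.39). Mpdu1 also lost this call without Label_Input replicate 2 (-0.37) and in the 3G table (-0.43), Dpm3 without Label_Input replicate 1 (-0.59), and Srd5a3 without Label_Input replicate 2 (-0.44) or 3 (-0.32) and in the 3G table (-0.38). Dpm1, the catalytic subunit of dolichyl phosphate mannose synthase, fell by 0.91 ± 0.25 (edgeR adjusted p = 0.00644) against NonLabel_Enrich, with a mean of only 1.07 ± 0.202 CPM in Label_Enrich, against 2.01 ± 0.245 CPM in NonLabel_Enrich, and lost its call without Label_Enrich replicate 2 (-0.77). Dpagt1, which starts the lipid-linked chain, had a fold change of -0.23 ± 0.15 (edgeR adjusted p = 0.292) against NonLabel_Enrich.

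Of 13 nucleotide sugar transporters, 1 rose and 1 fell against NonLabel_Enrich (median 0.07), none rose and 2 fell against Label_Input (median -0.12), and none was called in NonLabel_Enrich against Label_Input (median -0.19). Calls in either direction took 20.1%, 28.7% and 29.5% of all tested genes in these comparisons. Slc35a2, the UDP-galactose carrier, rose by 0.39 ± 0.13 (edgeR adjusted p = 0.0262) against NonLabel_Enrich, a call lost without Label_Enrich replicate 2 or 3 or NonLabel_Enrich replicate 1 or 3 (0.28 to 0.38). Slc35a4 fell by 0.29 (edgeR adjusted p = 0.0047) against NonLabel_Enrich and by 0.28 (edgeR adjusted p = 0.0205) against Label_Input, and both calls were lost without Label_Enrich replicate 2 (-0.21 and -0.19), the one against Label_Input also without Label_Input replicate 2 (-0.22) or 3 (-0.21). Slc35c1, the GDP-fucose carrier, fell by 0.47 (edgeR adjusted p = 0.0367) against Label_Input and lost its call without Label_Enrich replicate 1 or 2 or Label_Input replicate 2 or 3 (-0.51 to -0.33). Against Label_Input neither Slc35a4 nor Slc35c1 was called by DESeq2 (-0.24 and -0.44), without the filter (-0.18 and -0.37) or in the 3G table (-0.25 and -0.40). Of 26 enzymes that make activated sugars, 1 rose against NonLabel_Enrich (median -0.01), 2 rose and 3 fell against Label_Input (median -0.04), and 2 rose and 3 fell in NonLabel_Enrich against Label_Input (median -0.11). The riser against NonLabel_Enrich was Uxs1, which makes UDP-xylose and, unlike most of that list, is anchored in the Golgi membrane. It averaged 16.6 ± 0.927 CPM in Label_Enrich, against 10.5 ± 1.43 CPM in NonLabel_Enrich and 12.8 ± 0.827 CPM in Label_Input (SD, n = 3 each), and rose by 0.67 ± 0.08 (edgeR adjusted p = 3.49e-09) against NonLabel_Enrich and by 0.39 ± 0.10 (edgeR adjusted p = 0.00172) against Label_Input. Fuk, which salvages fucose, rose by 0.58 ± 0.11 (edgeR adjusted p = 2.55e-05) against Label_Input, and Tsta3, which makes GDP-fucose, fell by 0.49 ± 0.12 (edgeR adjusted p = 0.00055), a call lost without Label_Input replicate 1 (-0.32). In NonLabel_Enrich against Label_Input Fuk also rose, by 0.36, and Tsta3 fell by 0.45. Fuk lost that call without Label_Input replicate 1 or 2 or NonLabel_Enrich replicate 2 (0.27 to 0.33) and in the 3G table (0.27), and Tsta3 lost its call without Label_Input replicate 1 (-0.28).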

How the data were processed

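Per the labels' protocols, RNA was purified, biotin was clicked onto it, part was set aside and the rest was bound to streptavidin beads; libraries came from the NEBNext Ultra II RNA kit. The authors deposited raw counts of reads for each Ensembl gene ID. The submitters' processing notes name cutadapt (1.18), HISAT2 (2.1.0), HTSeq (0.7.2), DESeq2 (1.16.1) and build GRCm39. Strandedness and annotation release are not stated there, so counts of overlapping or near-identical genes are uncertain. Symbols, transcript lengths and coding sequences were taken from GENCODE M21 (build GRCm38), which covered 52073 of 56691 IDs, and no coordinates are given because the builds differ.

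edgeR 4.0.16 in R 4.3.3 was fitted to the 9 MC38 12G libraries together, with TMM scaling, filterByExpr with its defaults and a 2-sided quasi-likelihood test. Calls used a Benjamini-Hochberg adjusted p under 0.05 over all 11676 tested genes. CPM carry the TMM scaling, so levels are relative to the bulk of genes. Each SE was obtained as the size of the log2 fold change over the root of F. Replicates may be technical repeats, in which case the p-values describe only the spread between those libraries. The procedure was tested on simulated data. The MC38 3G table was read as a shallower count of the same libraries (0 features higher, totals 67.8% to 68.9% as large) and served as an alternative. The HEK293T table, whose IDs could not be named, was not used here, and the MC38 tables held 0 columns without a sample.

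The members and the lists were chosen with earlier results of these data known. Members are named with values by these rules: in each role the 2 with the smallest p in each comparison of Label_Enrich and the most abundant one, those called lower or at least 2-fold, and those nearest the minimum sum; from each further list, the 2 with the smallest p in each of these comparisons. All others, such as those given in lists of calls, were named after their values were seen. A further gene of the dolichol pathway was left out of that list and is not reported here. Alternatives covered scaling, filters, DESeq2 1.42.0, a replicate block, leaving out each library, table, library size, transcript length and class definition.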

Additional observations from a re-analysis of the deposited data

How the results depend on the processing

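Without the low-count filter the higher share of calls was 65.4% in Label_Enrich against Label_Input (49.3% with it), 63.1% in Label_Enrich against NonLabel_Enrich (52.0%) and 62.3% in NonLabel_Enrich against Label_Input (50.2%). In Label_Enrich against Label_Input 5 ER members rose without the filter, 1 fell in the 3G table, and the Golgi median was 0.37 for members with at least 900 counts. In Label_Enrich against NonLabel_Enrich 3 Golgi members rose by DESeq2 and 3 in the 3G table. In NonLabel_Enrich against Label_Input the ER members that fell numbered 0 by DESeq2, 0 without the filter, 0 with only the 6 libraries compared, 3 with the strict filter and 2 in the 3G table, where the ER median was -0.17. The cause of these changes was not tested.

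Leaving out 1 library in turn gave 1 to 4 ER risers and an ER median of 0.15 to 0.30 in Label_Enrich against Label_Input. In Label_Enrich against NonLabel_Enrich it gave 3 to 7 ER risers, 2 to 6 Golgi risers and 1 to 2 Golgi members that fell, and in NonLabel_Enrich against Label_Input 0 to 3 ER members that fell. Of the 375 counts and medians recomputed, 351 kept within 1.5 times or within the spread between libraries. The 351 include counts that stayed at 0 and values refitted without a library from outside the comparison. Of 9 same-numbered pairs of libraries 1 deviated together (Label_Enrich and NonLabel_Enrich replicates 1, correlation 0.20 over 2248 genes) and the others had correlations of -0.067 to 0.020, so the numbers were not taken to pair samples. With the replicate block 3346, 2375 and 3432 genes were called in the 3 comparisons, against 3354, 2342 and 3440 without it, and 3, 7 and 0 ER members and 16, 6 and 13 Golgi members rose.

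Signs turned for genes that were not called. In Label_Enrich against Label_Input, B4galt2 was 0.052 without the filter, Chst1 -0.0055 with the strict filter and -0.056 in the 3G table, and Alg8 -0.17 in the 3G table. In Label_Enrich against NonLabel_Enrich, Chst3 was 0.15 and St3gal5 -0.027 in the 3G table. Leaving out 1 library in Label_Enrich against Label_Input gave -0.025 to 0.20 for Alg8, -0.0024 to 0.33 for B3gntl1, -0.13 to 0.096 for B4galt2, -0.12 to 0.13 for Chst1, -0.044 to 0.089 for Chst14, -0.035 to 0.20 for Fut11, -0.041 to 0.31 for Fut8, -0.25 to 0.0022 for St3gal3, -0.10 to 0.42 for St3gal4. Leaving out 1 library in Label_Enrich against NonLabel_Enrich gave -0.069 to 0.12 for Chst10, -0.15 to 0.039 for Chst2, -0.16 to 0.058 for Chst3, -0.32 to 0.0086 for Mgat3, -0.026 to 0.12 for Nus1, -0.0033 to 0.070 for St3gal2, -0.050 to 0.13 for St3gal5, -0.091 to 0.035 for Tsta3.

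Of the 14 ER members 5 had at least 900 counts over the 9 libraries; the part of depth in single calls was not tested.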
